A study of Mus musculus with 51 samples.

Results

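The hyaluronan receptor gene Cd44 and 8 integrin genes (Itga5, Itga6, Itga7, Itgav, Itgb1, Itgb3, Itgb5 and Itgb8) were examined for histone marks during the conversion of mouse neural progenitors into astrocytes. H3K27ac and H3K4me1 ChIP-seq peaks were taken when they overlapped the gene body of a member or the 10 kb on either side of it. This gave 634 of the 803595 peaks in 6 deposited lists, at 9 of 22218 coding genes. The lists came from C57/BL-6 cells at 3 stages. The first stage was aNPC, neural progenitors derived from ES cells and kept in DMEM-F12 with N2, EGF and FGF-2. The second was eA, the early astrocytes after 1 day in DMEM with 1% FBS and LIF, and the third was lA, the cells after 5 days in that medium. All 3 stages are cultures derived from mouse ES cells, and no siRNA was applied in these lists. Each list was called on 2 merged biological replicates without input, so that the spread between replicates and the depth are unknown, and every difference between stages given here is a description without a test.

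CD44 is the main cell-surface receptor for hyaluronan, the large sugar polymer of the extracellular matrix of the brain, and is known as a marker of astrocyte-restricted precursors and of reactive astrocytes. Integrins are heterodimers of an α and a β subunit that bind matrix proteins such as fibronectin, laminin and vitronectin and connect them to the actin cytoskeleton. H3K27ac marks active promoters and enhancers, while H3K4me1 marks enhancers whether active or not, and a distal site with H3K4me1 before H3K27ac is commonly called primed.

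The sequences below show the sites that the following results turn on, from the mm9 genome (NCBIM37). The first pair are the primers of the study's Cd44 promoter ChIP-PCR and the second pair those of its distal site, each written 5′ to 3′, and each matched the genome exactly.
Cd44 promoter forward primer: atatttggcccaagctcctc
Cd44 promoter reverse primer: ccatctaaatgtggttggtgac
Cd44 distal forward primer: gcacaatctcaggggacttt
Cd44 distal reverse primer: ttgttagaagcattgtaccaggag
The promoter pair encloses chr2:102740606-102740665, an amplicon of 60 bp centred 1187 bp inside the gene. The distal pair encloses chr2:102713165-102713224, also 60 bp, centred 28.6 kb inside the gene in an intron.

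The next 4 sequences are the 300 bp around H3K27ac summits at Cd44 (intron, chr2:102713875-102714174), Itga7 (intron, chr10:128375265-128375564), Itgb3 (intron, chr11:104489118-104489417) and Itgb1 (upstream, chr8:131204088-131204387), all on the + strand of mm9. Capitals mark exact matches, on either strand, to TGACTCA (AP-1), TGCCAAG (NF1 half-site), AACCACA (RUNX) or TTCCNGGAA (STAT), the letters of factor families that the study perturbed. They are shown because they carry such letters beneath H3K27ac peaks. The Itgb3 peak was present in eA alone, while the Cd44, Itga7 and Itgb1 sites had H3K27ac at all stages. NF1 half-sites also lay around the aNPC and lA summits of the Cd44 site. A match in such a window depends on where the summit of a stage lies within its site.
Cd44 intron, eA summit: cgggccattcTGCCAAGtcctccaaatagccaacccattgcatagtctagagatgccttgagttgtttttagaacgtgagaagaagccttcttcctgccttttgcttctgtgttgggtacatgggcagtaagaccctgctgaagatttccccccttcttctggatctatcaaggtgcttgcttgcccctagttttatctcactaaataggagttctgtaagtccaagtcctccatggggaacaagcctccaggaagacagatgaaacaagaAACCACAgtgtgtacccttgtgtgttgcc
Itga7 intron, eA summit: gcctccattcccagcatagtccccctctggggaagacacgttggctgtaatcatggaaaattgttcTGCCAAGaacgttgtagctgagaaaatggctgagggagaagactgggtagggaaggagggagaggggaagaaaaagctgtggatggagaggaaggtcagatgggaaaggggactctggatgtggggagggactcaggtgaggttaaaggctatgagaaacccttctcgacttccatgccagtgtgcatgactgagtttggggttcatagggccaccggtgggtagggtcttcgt
Itgb3 intron, eA summit: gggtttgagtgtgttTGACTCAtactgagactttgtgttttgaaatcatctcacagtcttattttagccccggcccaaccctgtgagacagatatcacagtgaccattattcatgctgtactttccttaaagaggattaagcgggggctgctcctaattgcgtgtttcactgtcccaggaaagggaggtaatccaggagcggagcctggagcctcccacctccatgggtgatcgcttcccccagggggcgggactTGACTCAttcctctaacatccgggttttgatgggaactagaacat
Itgb1 upstream, lA summit: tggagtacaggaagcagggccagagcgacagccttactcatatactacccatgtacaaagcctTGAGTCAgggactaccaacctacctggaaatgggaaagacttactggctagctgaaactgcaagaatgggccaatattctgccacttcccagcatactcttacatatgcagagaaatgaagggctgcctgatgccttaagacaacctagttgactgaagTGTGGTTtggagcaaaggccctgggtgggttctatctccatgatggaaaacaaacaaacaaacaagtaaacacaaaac
The Cd44 window holds an NF1 half-site and a RUNX match, the Itga7 window an NF1 half-site, the Itgb3 window 2 AP-1 matches and the Itgb1 window an AP-1 and a RUNX match.

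The last 2 sequences set the promoter with the highest-ranked H3K27ac of the family, Itgb1, beside one with little promoter H3K27ac, Itga7. Each runs from 250 bp before to 50 bp after the most upstream start site of a coding transcript, on the + strand (Itgb1 at chr8:131209304-131209603, Itga7 at chr10:128370619-128370918), with CpG dinucleotides in capitals.
Itgb1 promoter: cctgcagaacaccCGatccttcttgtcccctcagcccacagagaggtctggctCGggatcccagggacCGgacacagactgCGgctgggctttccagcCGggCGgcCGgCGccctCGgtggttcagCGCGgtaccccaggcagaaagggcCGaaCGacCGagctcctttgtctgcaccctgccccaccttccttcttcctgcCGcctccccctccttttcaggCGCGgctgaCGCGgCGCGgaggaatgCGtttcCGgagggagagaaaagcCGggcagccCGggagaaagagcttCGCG
Itga7 promoter: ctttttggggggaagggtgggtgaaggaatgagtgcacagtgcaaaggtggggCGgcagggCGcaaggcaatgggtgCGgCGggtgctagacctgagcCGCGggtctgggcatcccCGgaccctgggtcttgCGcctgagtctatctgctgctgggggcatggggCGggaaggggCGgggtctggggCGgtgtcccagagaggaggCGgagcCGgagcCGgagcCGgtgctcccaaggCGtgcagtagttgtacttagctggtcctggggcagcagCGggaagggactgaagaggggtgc
The Itgb1 window holds 27 CpG and the Itga7 window 17. The other members held 6 (Cd44), 13 (Itga5), 16 (Itgb8), 20 (Itgb5), 24 (Itgav), 29 (Itga6) and 29 (Itgb3), against a median of 12 over the 22218 coding genes and of 21 over the 11824 genes with an H3K27ac peak at a promoter in eA. Cd44 lay below both medians, and Itga5, Itga7, Itgb5 and Itgb8 lay between them.

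Values of the 3 stages are given in the order aNPC, eA, lA from here on. The member loci together held 61, 73 and 79 H3K27ac peaks, of lists of 79413, 83433 and 92700 peaks. They held 124, 141 and 156 H3K4me1 peaks, of lists of 154238, 185478 and 208333. When the same number of top peaks was taken from every list of a mark, the H3K27ac totals were 61, 65 and 73, while the H3K4me1 totals were 124, 117 and 116. The larger H3K4me1 totals of eA and lA thus went with longer lists, and the H3K27ac totals kept their order. H3K27ac peaks were more numerous in lA than in aNPC at 6 members, compared with 46% of the coding genes with a peak at either stage, and fewer at 2 members, compared with 29.8%. For H3K4me1, 7 members had more peaks in lA (56.2% of all genes) and 1 had fewer (24.3%). These tallies also went with list length. With equal lists, 5 members had more H3K27ac peaks in lA (39.2% of all genes) and 3 fewer (35%), while 3 members had more H3K4me1 peaks (32.3%) and 5 fewer (45.7%).

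**Figure D1:**
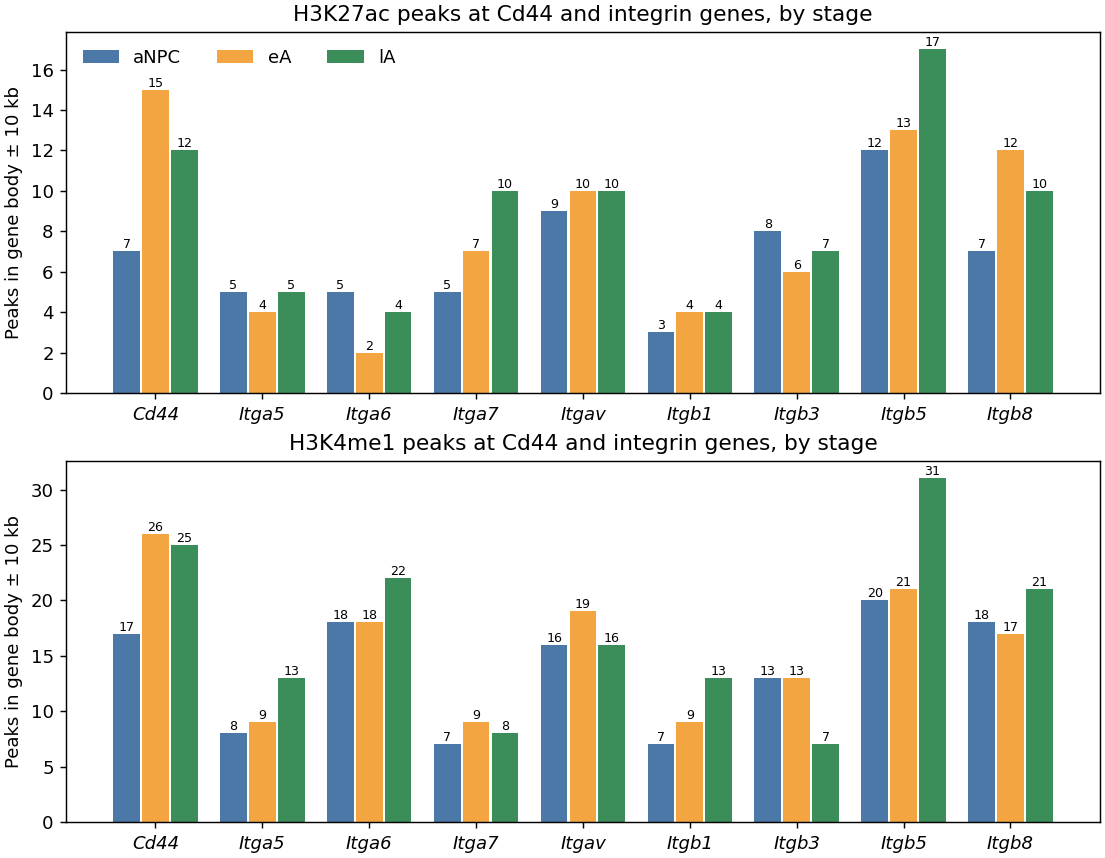
Number of H3K27ac (top) and H3K4me1 (bottom) peaks in the gene body and 10 kb on each side of each member, with 1 bar per stage and its count above it. Cd44 has the most H3K27ac peaks in eA (15), but with a −log10 q of at least 5 both Cd44 and Itgb5 have 11. Itgb5 has the most peaks of both marks in lA (17 and 31), and Itgb3 has fewer H3K4me1 peaks in lA (7) than in aNPC (13).

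The share of each locus covered by peaks depends less than the count on whether a broad domain was split into several peaks. It still leaves out the gaps between them. At the Itga5 promoter, for example, 1 H3K27ac peak covered 1272 bp in aNPC and 2 peaks covered 860 bp in lA. For H3K27ac, this share was at least 1.5-fold larger in lA than in aNPC at 1 member, Itga7 (20.2% of all genes with a peak at both stages), and at least 1.5-fold smaller at 2 members, Itga5 and Itga6 (17.8% of all genes). The calls at Itga5 and Itga6 rested on peaks in the flanks. With 5 kb on each side the Itga5 ratio was 0.721 instead of 0.621, and within the gene body alone the Itga6 ratio was 0.912 instead of 0.566, while that of Itga7 was 1.63. Conversely, Itgb1 passed 1.5-fold with 5 kb (1.70) and with the gene body alone (1.65), where the reported ratio was 1.37. The median ratio of the 9 members was 1.12 and that of all genes 1.00, so that both medians were close. For H3K4me1, Itgb1 was the member with a share at least 1.5-fold larger (1.82-fold, against 22.1% of genes called), no member was 1.5-fold smaller (5.25% of genes), and the median ratio was 1.21 against 1.13 over all genes.

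**Figure D2:**
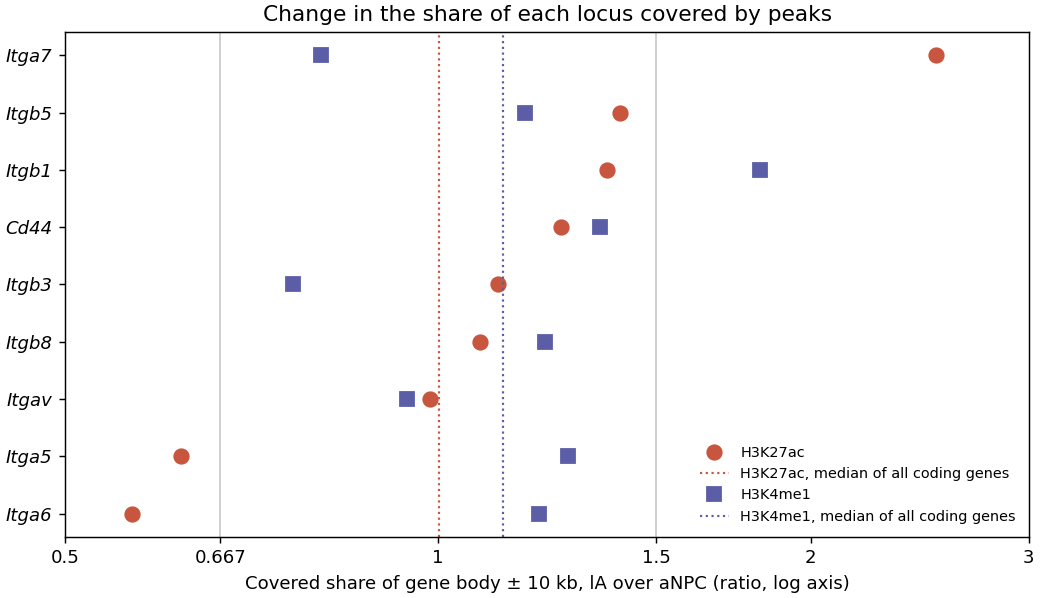
Ratio of the covered share of each locus in lA to that in aNPC, on a log axis, with circles for H3K27ac, squares for H3K4me1, dotted lines for the medians over all coding genes and grey lines at a 1.5-fold difference. Itga7 lies at 2.52 for H3K27ac and Itga6 at 0.566, while Itgb1 has the largest H3K4me1 ratio.

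Most members had H3K27ac at a promoter, although promoters took no larger share of their peaks than of the lists. A promoter was taken from 1 kb upstream to 100 bp downstream of any coding start site of the gene. In eA, all 9 members had an H3K27ac peak at a promoter, compared with 53.2% of coding genes. In aNPC 7 members had one (50.6% of genes), the exceptions being Itga7 and Itgb5, and in lA 7 members (48.2% of genes), the exceptions being Itga7 and Itgb3. With 1 kb downstream included, Itgb5 in aNPC and Itgb3 in lA also had such a peak, and Itga7 alone remained without it. Of the H3K27ac peaks at the member loci, 18.0%, 19.2% and 13.9% lay at a coding promoter, compared with 18.7%, 19.7% and 15.4% of the lists. H3K4me1 was found at the promoter of 7 members in aNPC (55.5% of genes), 7 in eA (53.6%) and 4 in lA (52.8%), the 4 being Itga5, Itgb3, Itgb5 and Itgb8. With 1 kb downstream included, the H3K4me1 counts were 8, 8 and 7. At Itga6 the promoter H3K27ac peak reached a later coding start site and missed the most upstream one.

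Cd44 (chr2:102651298-102741822, − strand) held 7, 15 and 12 H3K27ac peaks and 17, 26 and 25 H3K4me1 peaks. Of the H3K27ac peaks, 1, 4 and 3 were nearest to a start site of another gene and cannot be assigned to Cd44 by position alone. H3K27ac covered 4.48%, 6.54% and 5.63% of the locus, so that eA was highest by both measures. The higher H3K27ac count in eA was held by weak peaks in part, since with a −log10 q of at least 5 the difference from aNPC was 4 peaks instead of 8, and the difference of lA from aNPC was 1 instead of 5. The H3K4me1 counts went with list length, since with equal lists the differences from aNPC were 0 in eA and 1 in lA instead of 9 and 8. Peaks are ranked below by the share of their own list with an equal or higher −log10 q, as the values of different lists cannot be compared.

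The Cd44 promoter carried 1 broad H3K27ac peak at every stage. It was 1746 bp wide in aNPC and among the top 18.0% of that list, 1576 bp and top 12.1% in eA, and 1698 bp and top 17.6% in lA. H3K4me1 lay mainly inside the gene, with a peak of 1784 bp in aNPC (top 15.0%) whose summit was 754 bp past the start site. In eA this region held several narrower H3K4me1 peaks, the one over the ChIP-PCR amplicon being 646 bp wide and in the top 44.4%, and in lA the peak there was 1192 bp wide and in the top 38.6%. The promoter amplicon of the study overlapped a peak of both marks at all 3 stages.

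A distal site of Cd44 with H3K27ac at all stages lay in an intron about 28 kb inside the gene, the region of the distal ChIP-PCR amplicon. It held a larger and a smaller peak at each stage. In eA these were 1360 bp (chr2:102713039-102714398, top 18.5%), with the summit whose sequence is printed above, and 169 bp (top 63.6%). In aNPC they were 648 bp (top 17.5%) and 211 bp (top 77.3%), and in lA 863 bp (top 17.4%) and 285 bp (top 71.9%). The distal amplicon lay under the small peak in aNPC and lA and under the edge of the broad peak in eA, so the center of the acetylated region was beside it at all stages. H3K4me1 peaks began 67 bp (aNPC), 43 bp (eA) and 50 bp (lA) away from the amplicon. The H3K4me1 peak of this site was in the top 6.40%, 40.6% and 14.3% of its lists.

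A second intronic region of Cd44, about 81 kb inside the gene, had H3K27ac in eA and lA and none in aNPC. In eA its peaks were 565 bp (top 34.4%) and 737 bp wide (top 28.7%), and in lA 736 bp (top 40.8%) and 670 bp (chr2:102659924-102660593, top 11.1%). H3K4me1 covered this region at all stages, in the top 13.1%, 2.65% and 13.8% of the lists. The site was therefore one with H3K4me1 before H3K27ac. Its nearest coding start site was that of Slc1a2, the gene of the astrocytic glutamate transporter GLT-1, so the peaks cannot be assigned to Cd44 by position alone.

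Of the 20 merged H3K27ac sites of Cd44, 4 were present at all stages, 7 in eA alone, 5 in lA alone, 2 in eA and lA, 1 in aNPC alone, and 1 in aNPC and eA. Of the 7 sites in eA alone, 5 had H3K4me1 in aNPC, and of the 5 sites in lA alone, 1 had it in aNPC, 2 first in eA and 2 in lA alone. The aNPC site was a peak of 1451 bp at 34.6 kb (top 41.3%), where H3K4me1 remained at all stages. All sites in eA alone ranked in the lower part of their list, from the top 50.7% to 99.4%.

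**Figure D3:**
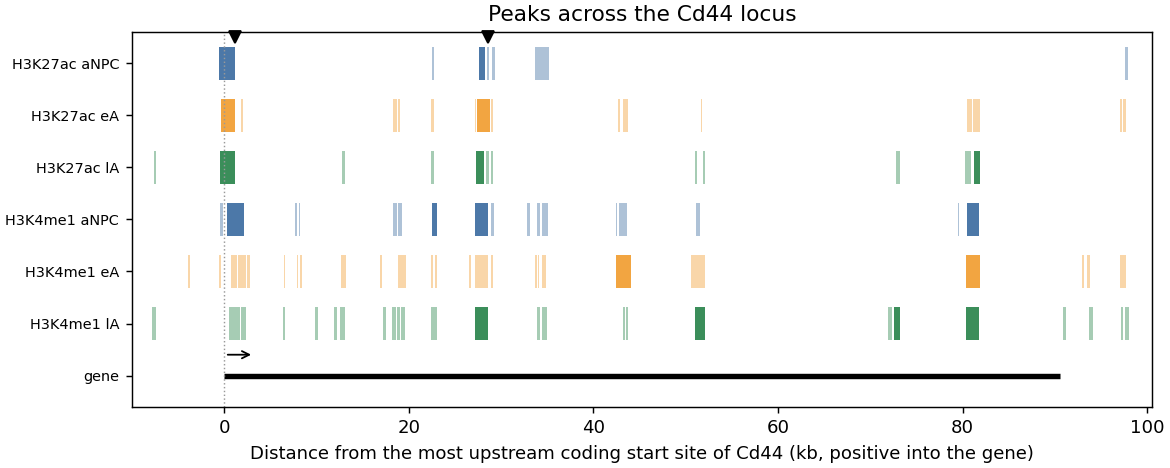
Peaks of both marks across the Cd44 locus by distance from the most upstream coding start site, with 1 row per list, peaks in the top 25% of their list in full colour and the others pale. Black triangles mark the ChIP-PCR amplicons 1.19 and 28.6 kb inside the gene, and the sites near 81 kb have H3K27ac in eA and lA while H3K4me1 is present at all stages.

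The 5 coding genes most like Cd44, by Euclidean distance over the covered share in the 6 lists among 5523 genes with loci 0.5 to 2 times as long, were Camsap2, Prkaa1, Lmnb1, Fam49a and Zdhhc18, at distances of 0.685 to 1.45 percentage points. H3K27ac covered 4.75%, 7.06% and 5.56% of the Camsap2 locus.

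Itga7 (chr10:128370869-128395333, + strand) encodes the α subunit of a laminin receptor and had the largest ratio of H3K27ac covered share between lA and aNPC among the members (2.52). It held 5, 7 and 10 H3K27ac peaks, and these covered 5.02%, 8.23% and 12.7% of the locus, placing it at percentiles 72.1, 85.8 and 96.2 among coding genes. H3K4me1 did not follow this, with 7, 9 and 8 peaks and a covered share of 12.8%, 12.7% and 10.3%. Of the 10 lA H3K27ac peaks, 7 overlapped an aNPC H3K4me1 peak.

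A pair of intragenic H3K27ac peaks of Itga7 was wider and ranked higher in lA. The one with its summit 4.61 kb inside the gene in lA was 796 bp wide and in the top 4.27% of the lA list, compared with 668 bp and the top 43.3% in aNPC and 475 bp and the top 38.9% in eA. The second, 5.19 kb inside the gene (chr10:128375760-128376790), was 1031 bp wide and in the top 2.90% in lA, compared with 454 bp and the top 48.5% in aNPC and 689 bp and the top 53.4% in eA. Both had H3K4me1 at all stages. The NF1 half-site printed for Itga7 lies beneath the first of these peaks.

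Upstream of Itga7, H3K27ac peaks 4.63 kb (eA, top 33.8%) and 4.62 kb (lA, top 18.8%) from the start site had no counterpart in aNPC, although H3K4me1 was present at all stages. In lA, a peak 1.74 kb upstream (433 bp, top 20.7%) and one 2.63 kb upstream (196 bp, top 83.7%) lay where no list had H3K4me1. The promoter itself carried H3K27ac only in eA, in a peak of 547 bp in the lower part of the list (top 60.6%), and no H3K4me1 in any list. The peak near the upstream edge of the locus was at the promoter of Bloc1s1. A peak in the downstream flank in eA and lA, 34 kb from the start site, was nearest to Mettl7b. Within the gene body alone, Itga7 had the same number of H3K27ac peaks in lA as in aNPC, so the added peaks lay outside the gene body.

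Itga5 (chr15:103174720-103197194, − strand), the α subunit of the main fibronectin receptor, had 5, 4 and 5 H3K27ac peaks, which covered 7.45%, 4.62% and 4.62% of the locus. Its promoter peak was 1272 bp wide in aNPC (top 8.42%) and 1171 bp in eA (top 15.7%). In lA it was split into peaks of 287 bp (top 69.9%) and 573 bp (top 26.8%). A peak of 815 bp at 9.87 kb upstream (chr15:103206753-103207567) was in the top 14.1% of the aNPC list and overlapped no eA or lA peak. The same H3K4me1 region went on past the edge of the locus, and there H3K27ac was present at all stages. It comprised 1 aNPC peak of 628 bp (top 27.7%), 3 eA peaks of 218, 189 and 144 bp (top 86.1% to 97.5%) and 2 lA peaks of 265 and 275 bp (top 78.8% and 69.8%). The H3K27ac of this region was thus narrower and lower-ranked in eA and lA, and not absent. H3K4me1 stayed there in broad peaks of 2141, 2567 and 2466 bp, in the top 9.63%, 10.15% and 23.5% of their lists. Intronic H3K27ac near 6.6 and 8 kb was present at all stages and below the top 50% of every list.

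**Figure D4:**
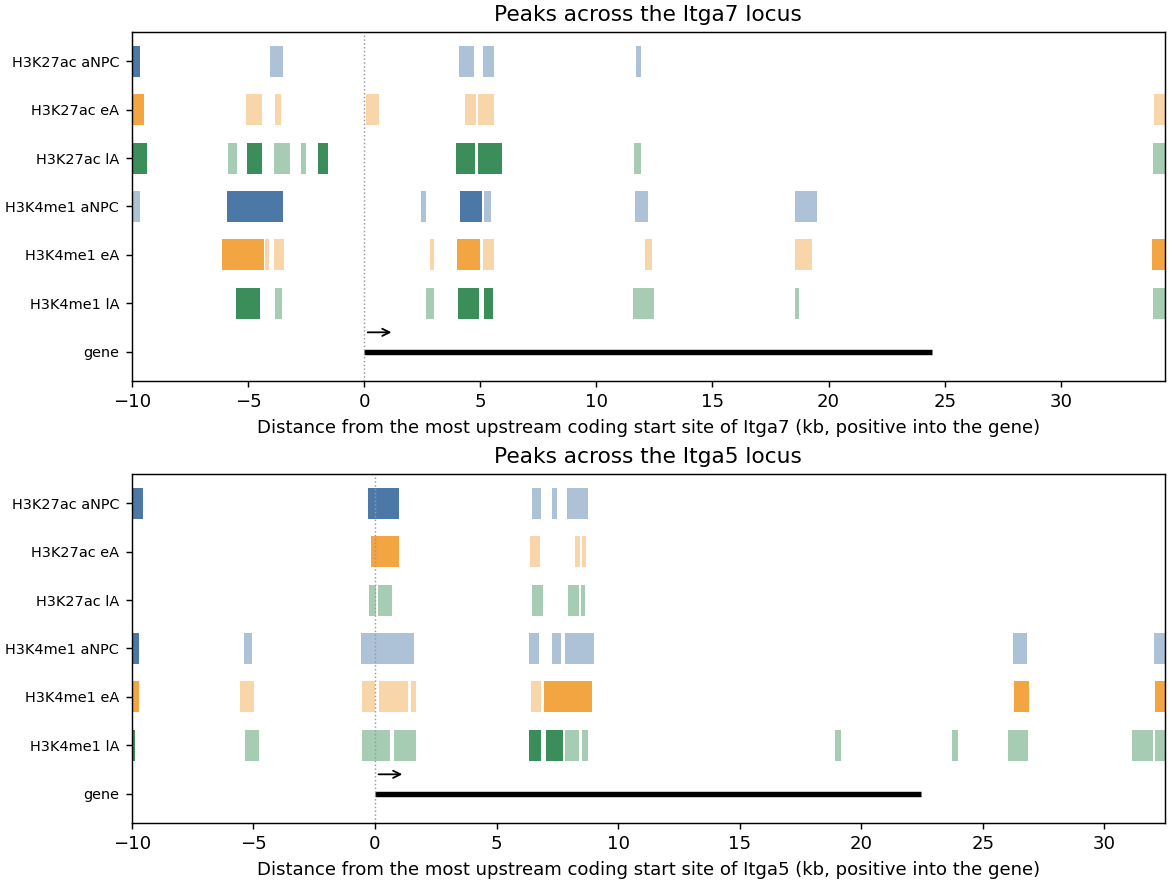
Peaks of both marks across the Itga7 (top) and Itga5 (bottom) loci, drawn as for Cd44. At Itga7, H3K27ac is wider in lA around 5 kb inside the gene, over H3K4me1 present from aNPC on, while of the lA peaks upstream of it those 1.74 and 2.63 kb away have no H3K4me1, and at Itga5 the H3K27ac peak 9.87 kb upstream is found in aNPC alone, although further H3K27ac peaks of all stages lie just outside the window drawn.

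Itga6 (chr2:71583673-71696473, + strand), the α subunit of laminin receptors and a surface marker of neural stem cells, had few H3K27ac peaks (5, 2 and 4), covering 2.70%, 1.08% and 1.53% of the locus. The promoter peak was steady in width (1095, 1234 and 1257 bp) and in the top 17.7%, 11.9% and 7.20% of its list. A peak of 1361 bp in aNPC alone (top 30.6%), 44.3 kb before the most upstream coding start site, had no H3K4me1 in any list and was nearest to Gm1631. An intronic site 50 kb inside the gene had weak H3K27ac in eA (198 bp, top 65.4%) and lA (383 bp, top 74.9%). H3K4me1 at that site was in the top 15.1%, 3.75% and 0.878% of its lists, the last being the highest rank of any H3K4me1 peak of this gene.

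Itgav (chr2:83564554-83647073, + strand), the α subunit that pairs with β1, β3, β5, β6 and β8, had 9, 10 and 10 H3K27ac peaks and covered shares of 6.06%, 5.47% and 5.98%. Its promoter peak was 2119 bp wide in aNPC (top 4.45%) and 2248 bp in eA (top 8.66%), and in lA the domain held 3 peaks of 212 bp (top 68.0%), 862 bp (top 15.1%) and 856 bp (top 12.5%). In the first part of the gene, a site 16.3 kb inside held 1 peak of 1630 bp in aNPC (top 13.5%), peaks of 729 bp (top 38.2%) and 166 bp (top 92.7%) in eA, and peaks of 524 bp (top 47.7%) and 225 bp (top 99%) in lA. An intronic site 35 kb inside the gene showed the opposite order, with narrow peaks of 178 and 194 bp in aNPC, 813 bp in eA (top 33.0%) and 1427 bp in lA (top 39.6%). H3K4me1 was present at both sites at all stages. An eA peak of 267 bp (top 82.4%) touched the promoter of an internal coding start site, and the peaks beyond the 3′ end were at the promoter of Fam171b.

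Among the β subunits, Itgb1 (chr8:131209554-131257100, + strand), the common partner of many α subunits, had the highest-ranked promoter. H3K27ac flanked its start site as a pair of peaks, upstream in the top 0.661%, 2.56% and 1.63% of the lists, and downstream in the top 1.27%, 0.920% and 1.41%. H3K4me1 was absent beneath the downstream peak at all stages, and the promoter had narrow H3K4me1 peaks of 345 and 236 bp in aNPC and 252 bp in eA, and none in lA. A site upstream of Itgb1, 5.65 kb from the start in aNPC, had H3K27ac at all stages and ranked in the top 17.4%, 25.9% and 40.4%, with H3K4me1 at all stages. The AP-1 and RUNX letters printed above lie at its lA summit, 5.32 kb from the start. An intronic site about 17.5 kb inside was gained in eA (158 bp, top 85.7%) and was 440 bp wide in lA (top 30.2%), with H3K4me1 from aNPC on. The 13 H3K4me1 peaks in lA against 7 in aNPC included 7 sites in lA alone, and the difference was 0 with lists of equal length.

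Itgb3 (chr11:104469370-104531790, + strand), a subunit of the vitronectin receptor, carried strong H3K4me1 and weak H3K27ac at its promoter. The H3K4me1 peak was 1171 bp in aNPC (top 4.11%), 963 bp in eA (top 0.494%) and 1166 bp in lA (top 2.92%). H3K27ac there was a peak of 244 bp in aNPC (top 73.5%) and 266 bp in eA (top 76.2%), and the lA peak of 271 bp (top 48.5%) began 193 bp past the start site, outside the promoter window. H3K27ac sites at 8.75, 12.1, 29.9 and 30.7 kb from the start were present in aNPC alone. A pair of intronic sites near 17 and 18 kb had H3K27ac in eA and lA, and H3K4me1 at all stages. An intronic site 19.9 kb inside, with the 2 AP-1 matches printed above, had H3K27ac in eA alone (430 bp, top 68.5%) and H3K4me1 in aNPC and eA. Itgb3 had 13, 13 and 7 H3K4me1 peaks, and it was the member with fewer in lA than in aNPC. With lists of equal length the difference was still -6, and Itga6, Itga7, Itgav and Itgb8 had fewer as well. In part, the lower count came from merging of neighbouring peaks, since with peaks under 500 bp apart counted as 1 the difference was 2 instead of 6.

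Itgb5 (chr16:33829751-33949239, + strand), the β subunit of another vitronectin receptor, was the longest locus and held the most peaks of both marks in aNPC and lA, with 12, 13 and 17 for H3K27ac and 20, 21 and 31 for H3K4me1. H3K27ac covered 5.14%, 4.83% and 7.21% of the locus. Peak splitting set the order of the counts, since with peaks under 500 bp apart counted as 1 there were 3 fewer H3K27ac peaks in eA and 1 fewer in lA than in aNPC. The promoter had H3K27ac in eA (338 bp, top 52.7%) and lA (361 bp, top 67.0%), beside a peak just inside the gene that reached the top 17.9% in eA. The highest-ranked distal site, 86.5 kb inside the gene, was in the top 21.8%, 15.9% and 3.43% of the H3K27ac lists. Its H3K4me1 peak ranked in the top 0.502%, 2.30% and 0.956%. H3K4me1 was high across the 3′ part of this gene, as at 112 kb inside (top 0.172%, 0.961% and 5.62%), but the nearest coding start site of the 86.5-kb and 112-kb sites was that of Umps. This held for 7 of the Itgb5 H3K27ac peaks at each stage, so that they cannot be assigned to Itgb5 by position alone.

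Itgb8 (chr12:120396495-120477275, − strand), which with αv activates latent TGF-β in neural cells, had 7, 12 and 10 H3K27ac peaks and covered shares of 7.32%, 8.0% and 7.91%. The promoter domain was 2105 bp wide in aNPC (top 5.20%) and 2464 bp in eA (top 2.41%), and in lA it was split into peaks of 868 bp (top 3.16%) and 1471 bp (top 4.31%). H3K4me1 overlapped the upstream part of this domain at all stages, with its summit before the start site (top 6.12%, 13.9% and 11.4%). Intronic sites at 19.5, 31.5 and 74 kb were shared by all stages. The site at 19.5 kb held peaks of 1122 bp (top 21.2%) and 219 bp in aNPC, of 903 bp (top 14.8%), 524 bp and 358 bp in eA, and of 2310 bp (top 12.7%) and 216 bp in lA, which together covered 1341, 1785 and 2526 bp. Sites near 7.8 and 8.7 kb had H3K27ac in eA and lA, and a site of 476 bp at 49 kb (top 36.9%) in aNPC alone.

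Over the whole family, 30 of the 79 lA H3K27ac peaks (38%, 95% Wilson interval 28.1 to 49) overlapped no aNPC H3K27ac peak, compared with 50.6% of the list. Conversely, 16 of the 61 aNPC peaks (26.2%, 16.8 to 38.4) overlapped no lA peak, compared with 45.4%. The other pairs of stages were nearer to the lists. The eA peaks without an aNPC peak were 42.5% (43.8% of the list), the aNPC peaks without an eA peak 34.4% (42.8%), the lA peaks without an eA peak 30.4% (33.9%) and the eA peaks without an lA peak 27.4% (28.2%). The intervals cover counting error over peaks only, and neighbouring peaks of a gene are not independent. The member H3K27ac peaks had median widths of 560, 390 and 506 bp, compared with 435, 389 and 429 bp in the lists. Their median −log10 q was 12.2, 7.93 and 9.57, compared with 9.80, 9.74 and 8.34. The part of peak width and strength in these shares was not tested. When merged across stages, 34 of 100 H3K27ac sites were present at all 3 stages, compared with 26.0% of the 132992 sites of the genome, and 14 in aNPC alone, compared with 21.5%. Sites in eA alone numbered 16 (11.1% of the genome's sites) and sites in lA alone 16 (19.3%). Cd44 held 7 of the 16 sites in eA alone, and without Cd44 the eA share was 9 of 80 sites (11.2%), close to that of the genome, while 30 (37.5%) were present at all stages. For H3K4me1, 80 of 184 sites (43.5%) were present at all stages, compared with 39.1%.

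**Figure D5:**
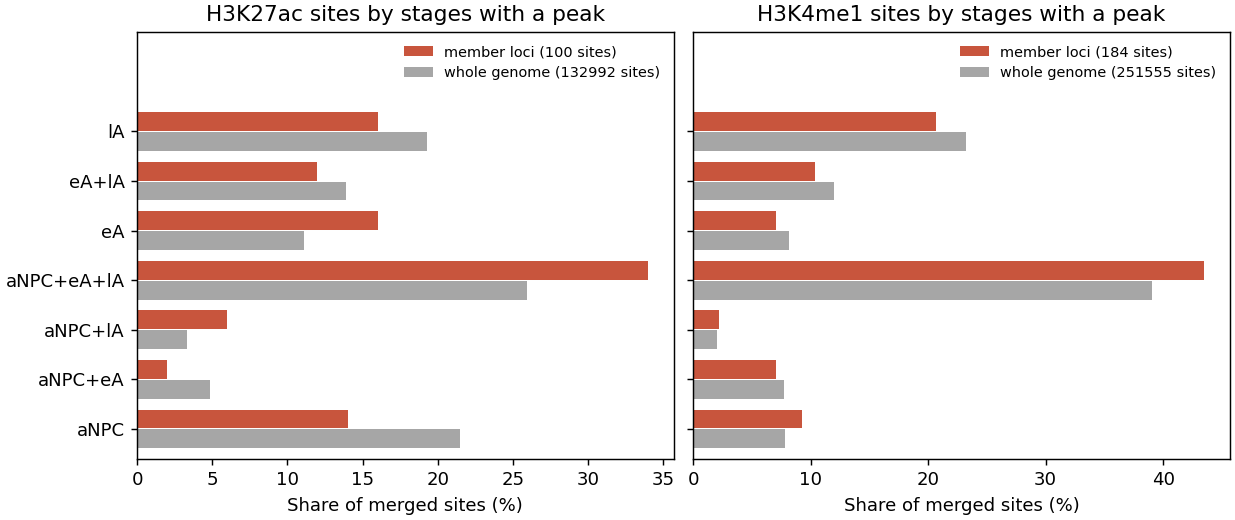
Share of merged H3K27ac (left) and H3K4me1 (right) sites by the stages in which they hold a peak, in red for the member loci and in grey for the whole genome. The member loci have 34% of H3K27ac sites at all stages against 26.0% genome-wide, and 16% in eA alone against 11.1%, where Cd44 supplies 7 of the 16 sites.

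Distal H3K27ac peaks without H3K27ac in aNPC often lay on H3K4me1 of aNPC or eA. Of 27 distal eA peaks without H3K27ac in aNPC, 20 (74.1%, 55.3 to 86.8) overlapped an aNPC H3K4me1 peak, compared with 63.1% of such peaks in the whole list. Of 29 distal lA peaks without H3K27ac in aNPC, 15 (51.7%, 34.4 to 68.6) overlapped an aNPC H3K4me1 peak, compared with 46.5%, and 21 (72.4%, 54.3 to 85.3) an eA H3K4me1 peak, compared with 74.1%. The 29 include peaks with H3K27ac already in eA, for which eA H3K4me1 was not of an earlier stage. Of 24 distal lA peaks without H3K27ac in eA, 15 (62.5%, 42.7 to 78.8) overlapped an eA H3K4me1 peak, compared with 65.6%. Some of these 24 had H3K27ac in aNPC. All these genome-wide shares lie inside the intervals of the members.

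The motif letters were counted in the member peaks and in the lists. Within 300 bp around the summits of the eA H3K27ac peaks, AP-1 letters occurred in 4 of 73 member peaks and 5.77% of the list, NF1 half-sites in 7 and 7.14%, RUNX letters in 4 and 5.61%, and STAT letters in 0 and 1.02%. In lA the counts were 2, 3, 2 and 0 of 79 member peaks, and the shares of the list 5.45%, 6.53%, 5.97% and 1.11%. In aNPC they were 2, 6, 1 and 1 of 61 member peaks, and 5.42%, 6.48%, 5.83% and 0.971% of the list. Around H3K4me1 summits, AP-1 letters occurred in 15 of 124 member peaks in aNPC (12.1%, against 6.98% of the list), 12 of 141 in eA (8.51% against 7.86%) and 18 of 156 in lA (11.5% against 7.75%). NF1 half-sites occurred in 14 (11.3% against 10.5%), 7 (4.96% against 9.67%) and 20 (12.8% against 9.61%) of these peaks. RUNX letters occurred in 4, 10 and 14, against 6.37%, 6.47% and 6.63% of the lists, and STAT letters in 1, 2 and 3, against 1.16%, 1.27% and 1.35%. A match of letters is not evidence of binding.

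The partners of these genes were described in the same way, by the number of H3K27ac peaks at their loci in lA and aNPC. Of 18 other integrin genes, 10 had more in lA, 5 fewer and 3 the same number. The largest differences were at Itga9 (29 in aNPC and 17 in lA), Itga1 (13 and 22) and Itga2 (6 and 11). Of 14 genes for hyaluronan turnover and CD44 partners, 8 had more in lA and 4 fewer, led by Nf2 (6 and 13), which encodes the membrane-cytoskeleton linker merlin, Msn (9 and 14), which encodes moesin, and Adam10 (4 and 8), a protease that sheds CD44.

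Of 12 genes of integrin ligands found in the annotation, 8 had more H3K27ac peaks in lA and 4 fewer. They were led by Tgfb2 (8 in aNPC and 14 in lA), Tnc (6 and 10), the gene of the matrix glycoprotein tenascin C, and Spp1 (0 and 3), the gene of osteopontin, which also binds CD44. Of 14 genes of integrin adaptors, 8 had more and 6 fewer, led by Ptk2 (27 and 16), the gene of focal adhesion kinase, Tln2 (18 and 26), the gene of talin 2, and Lims1 (18 and 11). In each of the 4 lists more peaks in lA was the more frequent outcome, as it was over all coding genes (46% against 29.8%).

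Promoter H3K27ac was examined at marker genes of the cell types the cultures could hold. Of 8 astrocyte markers, 5, 5 and 6 had it at the 3 stages, compared with 50.6%, 53.2% and 48.2% of coding genes, so these counts do not tell the stages apart, and of 5 neural progenitor markers 4 did at every stage. Of 5 neuron markers found in the annotation, 2 had it in aNPC (Tubb3 and Syt1) and 1 in eA and lA (Tubb3). None of the 5 microglia, 3 endothelial, 4 mesenchymal and 3 stem cell markers had it at any stage. The covered share of whole loci gave other values. Of the markers with H3K27ac at both aNPC and lA, the share was at least 1.5-fold larger in lA at 2 of 8 astrocyte, 0 of 5 progenitor, 2 of 2 neuron, 2 of 3 mesenchymal, 1 of 2 stem cell, 0 of 4 microglia and 0 of 3 endothelial markers, compared with 20.2% of all genes. It was at least 1.5-fold smaller at 1 astrocyte and 1 progenitor marker. The neuron genes called were Tubb3 (2.99%, 5.79% and 4.71%) and Syt1 (0.759%, 0.884% and 1.15%). The need for a peak at both stages left out Dcx, which fell (2.46%, 0.149% and 0%). It also left out Rbfox3 (0%, 0.798% and 0.517%) and Snap25 (0%, 0% and 0.521%), which had no peak in aNPC. The mesenchymal genes called were Col1a1 (5.32%, 9.70% and 10.6%) and Col1a2 (0.762%, 2.70% and 2.89%), which encode the chains of type I collagen. The stem cell gene called was Nanog (1.75%, 11.1% and 15.9%). Dcn was not called (0.521%, 0.0615% and 0.454%), and Lum and Zfp42 had no H3K27ac peak at any stage. The part of other cell types in the values of the members was not tested. Most progenitor markers thus still had the mark in lA, and a change in the mix of cells cannot be told apart from a change within cells in these bulk cultures.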

How the data were processed

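H3K27ac and H3K4me1 ChIP-seq of aNPC, eA and lA cells was analysed. The authors aligned unique reads to mm9 with Bowtie, merged 2 biological replicates per stage and mark with SAMtools 0.1.19, as their methods and processing notes state, and called peaks with MACS2 at default parameters without input. The deposited lists hold the position, the summit and the −log10 q-value of each peak, and the read depth is unknown. Mitochondrial peaks (4 or 5 per list) were set aside. The lists' −log10 q, computed by the authors' peak caller, was used only to rank, filter or compare peaks within a list. The RNA-seq, knockdown and later-stage samples were not analysed here, and 8 of 51 samples had conflicting labels.

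Genes, 22218 with a coding transcript, came from GENCODE M1 on mm9. An overlap of 1 bp or more made peaks shared. A distal peak overlapped no coding promoter of any gene. A covered-share difference was called at 1.5-fold. The members, gene lists and motifs were chosen with earlier results of these data known. All 9 members were named, as were up to 3 genes per partner list with the largest difference in H3K27ac peaks between lA and aNPC, the 5 genes most like Cd44, and within a member the promoter peaks and the highest-ranked peaks, with those distal H3K27ac peaks that differed between stages and ranked among the 3 highest. Col1a1, Col1a2, Nanog, the other cell type markers named and the other peaks described were chosen after their values were seen. The listed Map2 and Ccn1 had no entry under these symbols. No replicate test was possible. Overlap counting was tested on simulated peaks. Python 3.11.15, NumPy 2.4.6, pandas 2.3.3, SciPy 1.17.1, pysam 0.24.0, samtools 1.23.1 and matplotlib 3.10.9 were used.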

Additional observations from a re-analysis of the deposited data

How the results depend on the processing

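No paired analysis was possible because the replicates were merged before the peaks were called, and for the same reason no replicate could be left out. The alternatives were a −log10 q of at least 5, loci with 5 kb or no flank, peaks nearest to the member's own start site, lists of equal length (79413 peaks for H3K27ac and 154238 for H3K4me1), promoters of 1 kb on both sides and summits inside the other list's peak. Joining peaks under 500 bp apart and using the most upstream start site alone were added after the data were seen, as were covered shares with smaller flanks and site patterns without each member in turn. Of 36 such shares, 31 kept their side of 1.5-fold, 3 at Itga5 and Itga6 fell inside it and 2 at Itgb1 passed it. Of 70 recomputed family totals, promoter counts, gained and lost peaks and H3K4me1 shares, 68 stayed within 1.5 times of the reported value or inside its interval. The exceptions were the members with an lA H3K4me1 promoter peak (7 with 1 kb on both sides) and a share of gained distal lA peaks. That share, with H3K4me1 in aNPC or eA, was 91.3% at a −log10 q of at least 5. The order of the H3K4me1 totals over the stages was also lost with equal lists, as given above.

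Of 216 recomputed differences in peak number per gene, 102 stayed within 1.5 times of the reported value, 104 moved further and 10 changed sign, so that the count at a single gene depends on these choices. For Itgav H3K27ac, eA minus aNPC was -2 at the stricter q and -1 with equal lists, and lA minus aNPC was -1 with equal lists. For Itgb5 H3K27ac, joining close peaks gave -3 in eA and -1 in lA, and for Itga5 H3K4me1 -1 in eA. With equal lists, H3K4me1 differences were -2 for Itgb5 in eA, and -3 for Itga6, -1 for Itga7 and -4 for Itgb8 in lA. The depth of the lists is unknown and limits all counts.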
